A study of Equus caballus with 25 samples.

Results

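The comparison covers the endometrium, the lining of the uterus, of mares late and early in the luteal phase. It consists of 10 of the 25 one-colour arrays of the series: 5 labelled as day 12 of the cycle, late luteal phase, and 5 labelled as day 3, early luteal phase. Day 0 was the day of ovulation. Both groups came from the same 5 cycling Bavarian Warmblood mares, described as normal, and the labels name no treatment. Each mare gave 1 transcervical biopsy at each day, and the biopsies of a mare came from different cycles, so the days within a mare do not follow one corpus luteum. The labels give no age of the mares. The 5 arrays of day 8, mid luteal phase, from the same mares were used to see at which side of day 8 a difference arose.

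Between ovulation and about a fortnight later the corpus luteum secretes progesterone, and the endometrium turns from growth towards secretion. Its glands then release proteins that feed and protect an early conceptus, which in the horse stays free in the uterine lumen for a long time. Progesterone also lowers the receptors of ovarian steroids in the endometrium as the luteal phase goes on, and the epithelium becomes able to release prostaglandin F, which ends the life of the corpus luteum in a cycle without pregnancy. Day 3 lies at the start of this phase and day 12 near its end.

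All levels are log2 signals after subtraction of the 75th percentile of the same array, so a level of 0 is the brightness at that percentile. A level compares arrays for 1 probe and does not compare genes with each other. Differences are day 12 minus day 3 on the log2 scale, given with the moderated standard error (SE) of limma. A probe was called at an adjusted p under 0.05, and "rose" or "fell" is used for called genes. The 75th percentile ranged from 1601 to 2492 at day 3 and from 1509 to 2168 at day 12, and the day 12 array was the brighter of the pair in 3 of 5 mares. Between 75.8% and 84.3% of spots were well above background at day 3 and between 79.9% and 88.1% at day 12, and no spot was saturated. The number of arrays limits the precision: the SE of a tested probe had a median of 0.26. In a biopsy, fewer cells of a type and less RNA per cell cannot be told apart.

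Of 35772 tested probes 8332 differed between day 12 and day 3, which is 23.3% of them, 4305 higher (12.0%) and 4027 lower (11.3%) at day 12. Most differences were moderate, with a median absolute size of 0.96 among called probes. At least 2-fold changes were called for 2359 probes upwards and 1540 downwards, together 10.9% of those tested, and at least 8-fold ones for 180 and 167. All 5 mares had the same direction in 7604 of the 8332 called probes (91.3%). Mare by mare, between 97.3% and 99.4% of the called probes had the pooled direction, and in mares 1, 2 and 4, whose arrays of both days lay on 1 slide, the shares were 97.3%, 97.8% and 98.3%. Because the probes were called on the pooled difference of these same mares, such agreement follows largely from the selection. It does not test an effect of the slide. The median difference of all tested probes was 0.15. Quantile normalization brought that median to 0.04 and turned the split of calls to 3368 higher and 4730 lower, so the balance between rises and falls depends on the scaling. Without mare 3 the count fell to 5338 probes and without mare 5 to 5189. In mares 3 and 5 the arrays of both days lay on different slides and were scanned on different days. The parts of mare, slide and scan day in these drops cannot be told apart.

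**Figure D1:**
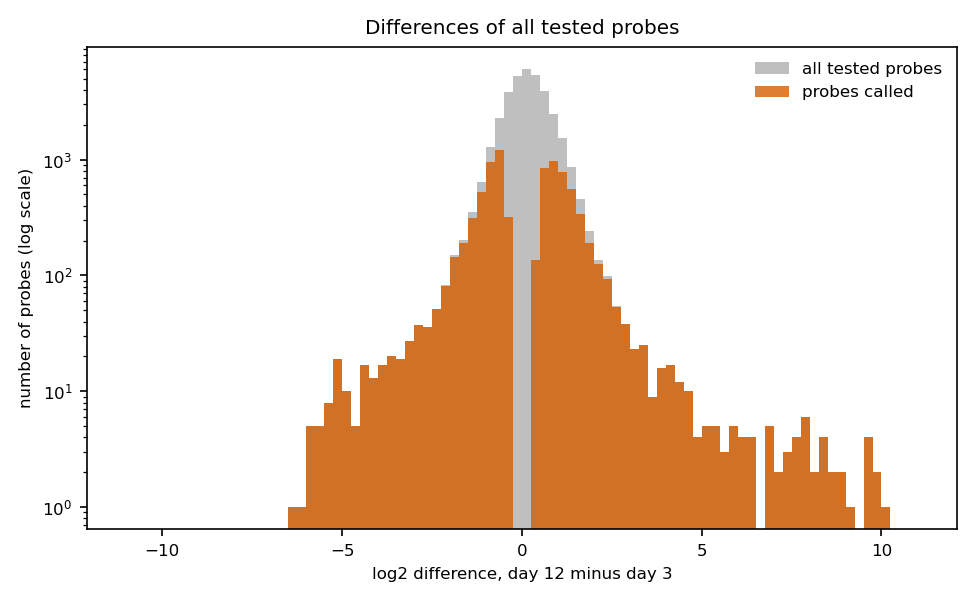
Histogram of the log2 difference, day 12 minus day 3, of the 35772 tested probes in grey and of the 8332 called probes in orange, with the number of probes on a log axis. The called probes lie on both sides of 0, with the longest tail among the 4305 higher probes.

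Gene symbols could be given to 514 tested genes, of which 138 were called, 26.8% of them: 75 rose (14.6%) and 63 fell (12.3%). The counts of called members of each gene list below are to be set against these shares. The lists were chosen with earlier results of these data known. A count or median of a list above that of all named genes may therefore follow from the choice, and enrichment was not tested. In 124 of the 138 all 5 mares moved the same way, which the selection on the pooled difference favours. In 72 of the 138 the levels of the 2 days did not overlap, while 17.3% of all named genes, called or not, had groups without overlap. The median difference of all named genes was 0.17. Among the 138 called genes, 68 had more than 1 tested probe, and in 47 of these every other probe was called in the same direction. Without mare 3, 82 named genes were called, and without mare 5, 85. Of the 70 genes that the naming rule selected 65 were called. None of them changed direction in the 25 alternative fits, 35 kept their call in all of these, and a call lost when 1 mare or array was left out is given with the gene. Genes described below moved in all 5 mares unless a smaller number is stated.

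**Figure D2:**
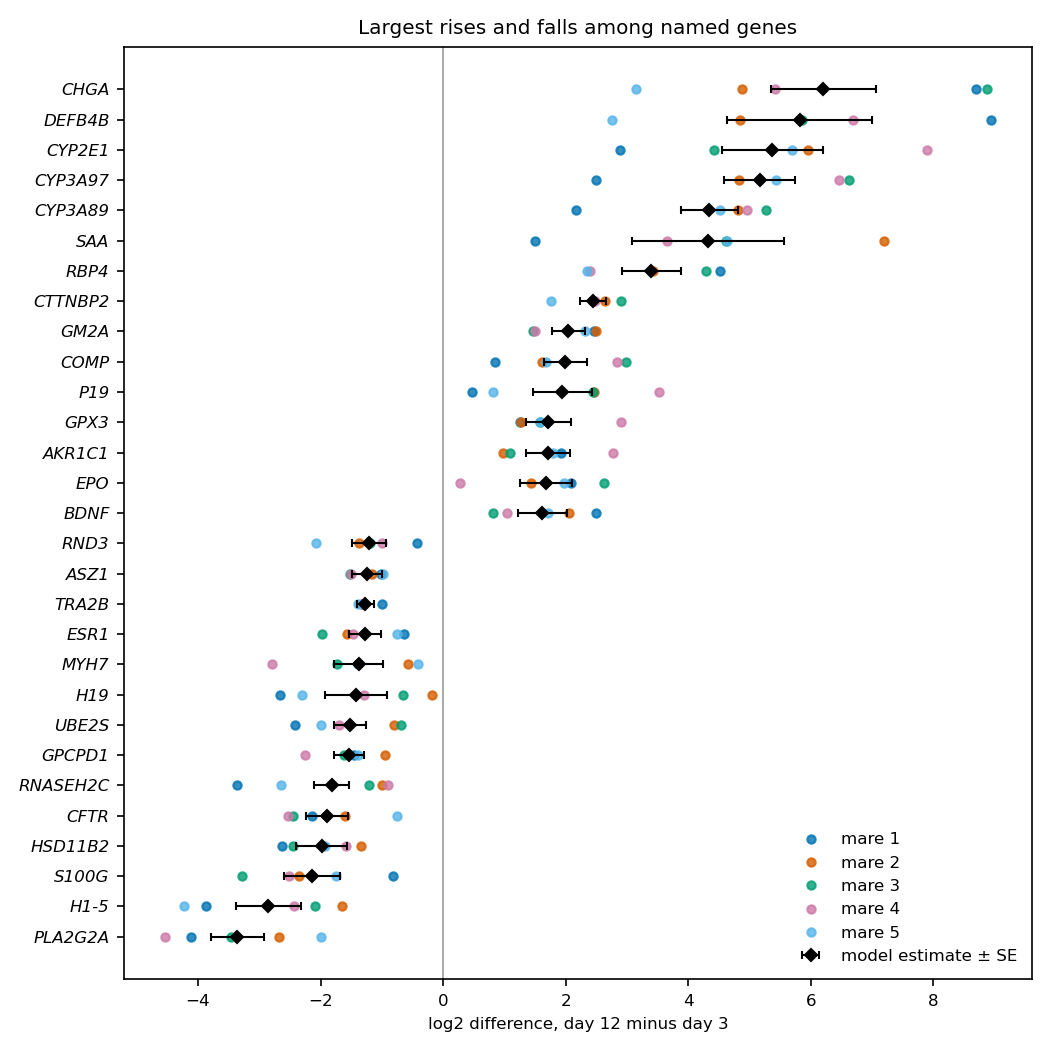
Log2 difference, day 12 minus day 3, for the 15 largest rises and 14 of the 15 largest falls among called named genes with the same direction in every mare. Coloured points are the 5 mares, and black diamonds with bars the model estimate with its SE. Every point lies on the side of its estimate, from 6.20 for CHGA at the top to −3.36 for PLA2G2A at the bottom.

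CHGA, chromogranin A, is a protein of hormone-storing granules. It had log2 levels of −8.29, −7.64, −7.51, −7.30 and −7.87 in mares 1 to 5 at day 3 and of 0.40, −2.76, 1.37, −1.88 and −4.73 at day 12. The highest day 3 level was −7.30 and the lowest day 12 level −4.73, and at day 3 the probe was well above background on 1 of 5 arrays. The difference was 6.20 ± 0.86 (adjusted p = 4.84e-05), the largest of the named genes at this scaling, and all 4 other probes of the gene were called too. Its size rests on a day 3 level near the background: with normexp background correction, which lowers the changes of dim probes by construction, it was 3.56 (adjusted p = 0.000835), below DEFB4B with 4.45 and CYP2E1 with 3.97. Mares 1 and 3 were highest at day 12 and mare 5 lowest. RBP4, which carries retinol, was at −0.03, 0.40, 0.37, 1.51 and −0.06 at day 3 and at 4.49, 3.81, 4.66, 3.91 and 2.29 at day 12. All day 12 levels exceeded all day 3 levels, and the difference was 3.39 ± 0.48 (adjusted p = 6.21e-05, 10.5-fold), with all 3 other probes called.

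P19, the lipocalin uterocalin that equine endometrial glands secrete into the lumen, was at 6.64, 5.14, 4.89, 4.03 and 7.02 at day 3 and at 7.11, 7.60, 7.34, 7.55 and 7.84 at day 12. The mares were far apart at day 3, with an SD of 1.25, and close together at day 12, with an SD of 0.27. The rise was 0.47 in mare 1, which was already high at day 3, and 3.52 in mare 4. The pooled rise was 1.94 ± 0.48 (adjusted p = 0.00647). GM2A, the GM2 ganglioside activator, a lipid-binding lysosomal and secreted protein, rose from −1.58, −1.82, −1.93, −1.91 and −1.98 to 0.87, 0.67, −0.47, −0.41 and 0.33. Its groups did not overlap and the difference was 2.04 ± 0.27 (adjusted p = 3.12e-05).

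GPX3, the secreted glutathione peroxidase that removes peroxides, rose by 1.71 ± 0.37 (adjusted p = 0.00215) from a mean level of −1.01 ± 0.65 (SD, n = 5) to 0.70 ± 0.11, and all 5 other probes were called with it. B2M, the light chain of class I histocompatibility molecules, rose by 0.58 ± 0.18 (adjusted p = 0.0246), and its other probe was not called. That call was lost in 8 of the 15 fits that left out a mare or an array, at most to an adjusted p of 0.12 without mare 1, and it also missed the threshold with the slide in the model (0.0677) and with the 10 arrays alone (0.0551). Of the 8 tested of 28 listed uterine secretory proteins, 5 rose (B2M, GM2A, GPX3, P19 and RBP4) and none fell, while 14.6% of all named genes rose. The median difference was 1.26 against 0.17 over all named genes. CLU, CRISP3 and LGB1 did not pass.

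**Figure D3:**
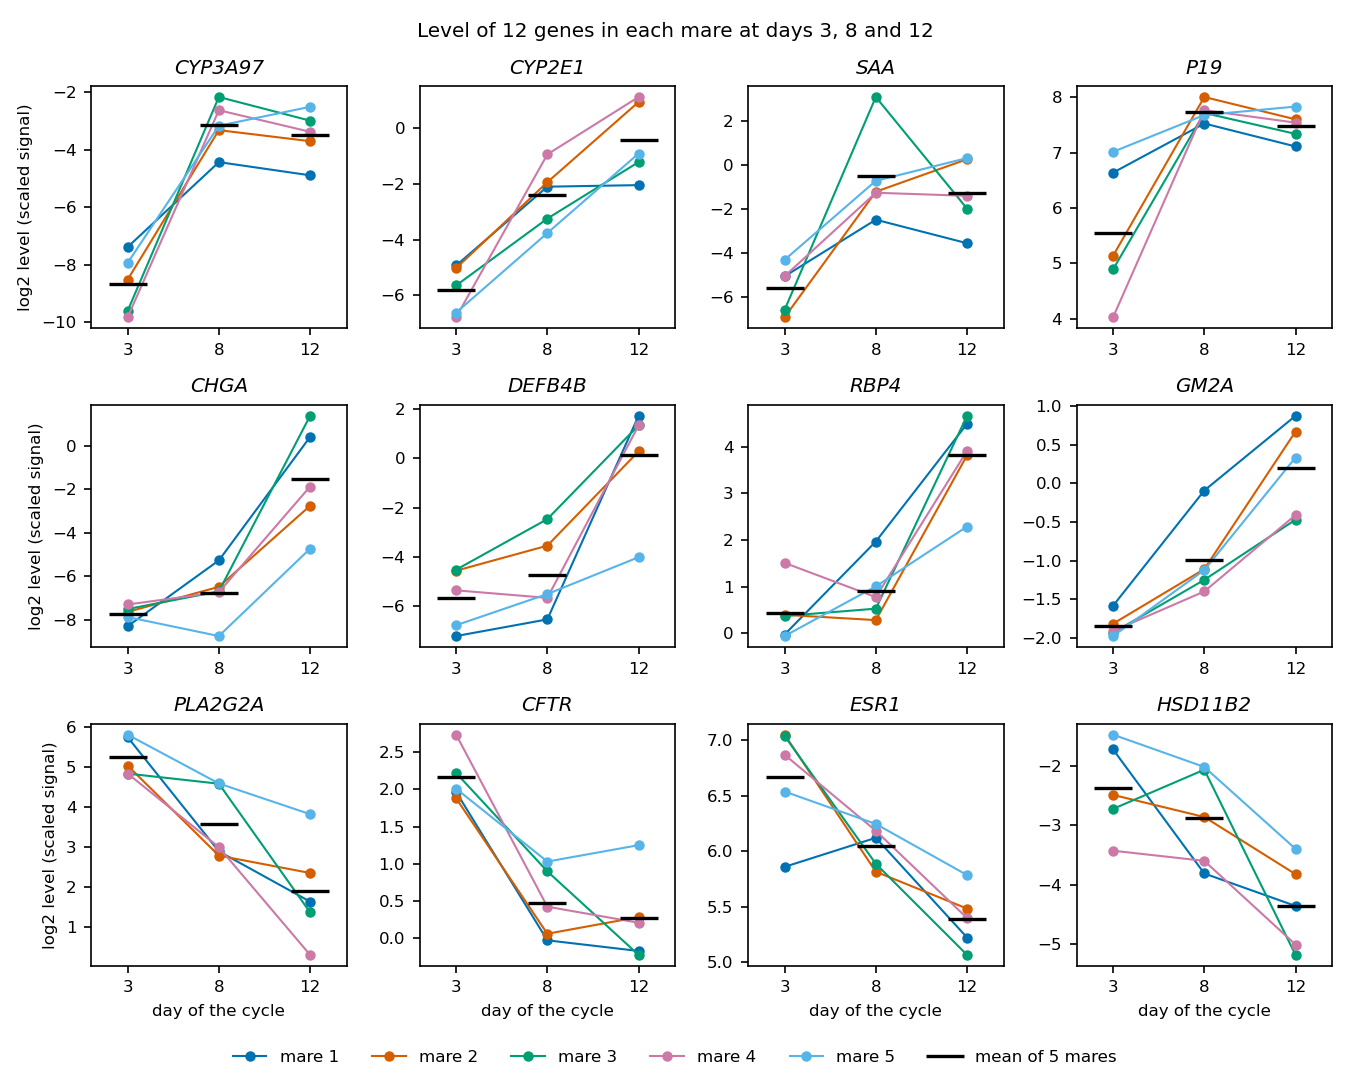
Log2 level, scaled to the 75th percentile of each array, of 12 genes at days 3, 8 and 12 of the cycle, with 1 coloured line per mare and a black bar at the mean of 5 mares. CYP3A97, SAA and P19 had their highest mean at day 8, whereas CHGA, DEFB4B and RBP4 had most of their rise after it; the bottom row shows 4 genes that fell.

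Large rises were also those of 3 cytochromes P450, enzymes that oxidize foreign compounds, fatty acids and steroids. CYP2E1 went from −4.93, −5.03, −5.65, −6.79 and −6.62 at day 3 to −2.05, 0.93, −1.23, 1.11 and −0.92 at day 12. It was higher in each mare by 2.88 to 7.89, and the pooled difference was 5.37 ± 0.82 (adjusted p = 0.000124, 41.3-fold), with all 4 other probes called. CYP3A97 went from −7.39, −8.52, −9.61, −9.83 and −7.94 to −4.89, −3.70, −2.99, −3.37 and −2.50, a difference of 5.17 ± 0.58 (adjusted p = 7.30e-06). It was well above background on 1 of 5 arrays at day 3, so its size rests on a level near the background, and with normexp the difference was 1.90 (adjusted p = 0.000168), less than the 3.40 of CYP3A89, 3.31 of RBP4 and 3.09 of SAA.

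CYP3A89, of the same subfamily, went from −4.30, −5.91, −5.65, −4.87 and −4.14 to −2.14, −1.10, −0.38, 0.10 and 0.38. Its groups did not overlap, the difference was 4.35 ± 0.46 (adjusted p = 4.32e-06), and its second probe was called. Members of the CYP3A subfamily are close in sequence, and cross-hybridization between them was not tested. In CYP2E1, CYP3A97 and CYP3A89 the smallest of the 5 rises was that of mare 1. CYP2C92 rose by 1.01 ± 0.28 (adjusted p = 0.0126). Its call was lost without mare 4 (0.76, adjusted p = 0.0893), and its other probe was not called. Of 7 tested genes of the P450 list of 19, these 4 rose and CYB5A, CYP2D50 and POR, the reductase that supplies electrons to them, did not pass. The median difference of the 7 was 1.01, and 14.6% of all named genes rose.

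Of the receptors for steroids and retinoids, 3 of 31 listed genes could be tested and 1 fell, while 12.3% of all named genes fell. ESR1, the oestrogen receptor alpha, had levels of 5.86, 7.05, 7.04, 6.87 and 6.54 at day 3 and of 5.22, 5.48, 5.07, 5.40 and 5.78 at day 12. All day 12 levels lay below all day 3 levels. The difference was −1.28 ± 0.26 (adjusted p = 0.00162), a 2.43-fold lower level, and all 5 other probes of the gene were called in the same direction. The fall was smallest in mare 1, which had the lowest level at day 3. PGRMC1 and RARB did not pass.

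Among enzymes of steroid metabolism the changes went both ways. AKR1C1, an aldo-keto reductase of a family that inactivates progesterone and reduces other ketosteroids, rose from −4.58, −3.80, −4.29, −5.10 and −6.27 to −2.66, −2.82, −3.20, −2.33 and −4.48. The groups overlapped because mare 5 was low at both days, but each mare rose, and the difference was 1.71 ± 0.36 (adjusted p = 0.0019) with both other probes called. With normexp it was 1.10 (adjusted p = 0.00218). HSD11B2, which inactivates glucocorticoids, fell from −1.73, −2.49, −2.73, −3.43 and −1.48 to −4.36, −3.83, −5.18, −5.01 and −3.40. The ranges overlapped, but each mare changed, by −1.33 to −2.63, and the difference was −1.98 ± 0.42 (adjusted p = 0.00192).

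NR5A2, a nuclear receptor that drives steroidogenic genes, rose by 0.88 ± 0.24 (adjusted p = 0.0114). Its call was lost without mare 1 (0.68, adjusted p = 0.0553), with quantile normalization (0.61, adjusted p = 0.13) and with normexp (0.46, adjusted p = 0.0573). HSD3B2, which makes progesterone from pregnenolone, differed by −0.58 ± 0.48 (adjusted p = 0.394) and CYP19A1, the aromatase that makes oestrogens, by 0.98 ± 0.48 (adjusted p = 0.142); neither passed. Of the 11 tested of 25 listed genes for steroid and sterol synthesis 2 rose, 1 fell and 8 did not pass, with a median difference of 0.35. The called share of all named genes was 26.8%.

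Of the listed genes of the prostaglandin pathway, both called ones were phospholipases that release arachidonic acid from membranes. PLA2G2A, a secreted phospholipase A2, fell the most of all named genes. It was at 5.74, 5.03, 4.83, 4.83 and 5.80 in mares 1 to 5 at day 3 and at 1.63, 2.35, 1.36, 0.30 and 3.82 at day 12. The groups did not overlap, with mare 5 highest and mare 4 lowest at day 12. The difference was −3.36 ± 0.42 (adjusted p = 2.16e-05, 10.2-fold lower), and all 4 other probes were called. PLA2G4A, the cytosolic phospholipase A2, fell by 0.98 ± 0.29 (adjusted p = 0.0195) in 4 of 5 mares, the exception being mare 1. Its call was lost in 8 of the 15 leave-out fits, at most to an adjusted p of 0.104 without mare 5, with the slide in the model (0.13) and with the scan day in it (0.0644).

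The tested listed genes of the next steps did not pass. PTGS2, the inducible cyclooxygenase, was at −0.08, 1.31, 0.06, −0.93 and −0.27 at day 3 and at 1.25, 1.12, 1.30, 1.39 and 0.36 at day 12, a difference of 1.06 ± 0.47 (adjusted p = 0.102) that was positive in 4 of 5 mares. PTGFR, the receptor of prostaglandin F, was at −3.92, −2.90, −3.15, −3.81 and −3.95 at day 3 and at −4.02, −4.35, −4.15, −5.82 and −4.17 at day 12. Every day 12 level lay below every day 3 level, yet the difference of −0.95 ± 0.37 had an adjusted p of 0.0694. Of 9 tested of 24 listed genes for prostaglandins and oxytocin none rose, 2 fell and 7 did not pass, while 5 had an unadjusted p under 0.05. Their median difference was −0.29, and 26.8% of all named genes were called. PGFS, named for the synthesis of prostaglandin F, is outside the list. It was called higher and is described under the other observations.

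Of the 3 tested genes of antimicrobial defence and the acute phase 2 rose, DEFB4B and SAA, and 1 did not pass. Of all named genes 14.6% rose. DEFB4B, a beta-defensin that kills microbes at epithelial surfaces, went from −7.21, −4.56, −4.52, −5.35 and −6.77 at day 3 to 1.73, 0.28, 1.34, 1.34 and −4.01 at day 12. At day 12 mares 1 to 4 lay between 0.28 and 1.73 and mare 5 stood far below them, although still above every day 3 level. The difference was 5.82 ± 1.18 (adjusted p = 0.00142, 56.4-fold), and the second probe was called. SAA, serum amyloid A, an acute-phase protein, went from −5.05, −6.91, −6.58, −5.04 and −4.30 to −3.54, 0.28, −1.97, −1.39 and 0.33. The groups did not overlap, but the mares differed widely at both days, and the difference was 4.32 ± 1.24 (adjusted p = 0.0163). Its call was lost without mare 2 (3.60, adjusted p = 0.0868) or the day 12 array of that mare (3.62, adjusted p = 0.0567), with the slide (4.06, adjusted p = 0.102) and with the scan day in the model (3.95, adjusted p = 0.0562). GNLY, the third tested member of 29 listed, did not pass.

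Immune signalling genes were compared next, where 26.8% of all named genes were called. Among 20 tested of 43 chemokines and cytokines 2 rose and none fell, with a median of 0.42. An unadjusted limma p under 0.05 was found for 7 of the 20. The called genes were IL12A with 0.92 ± 0.26 (adjusted p = 0.0151) and, in 4 of 5 mares, IL5 with 0.48 ± 0.16 (adjusted p = 0.0392). The call of IL12A was lost in 3 leave-out fits, at most to 0.0931 without mare 5, and in 5 other fits, down to a difference of 0.41 with normexp (adjusted p = 0.174) and 0.54 with quantile normalization (0.0853). That of IL5 was lost in 11 leave-out fits, at most to 0.172 without mare 2, and in 7 other fits, up to an adjusted p of 0.253 with quantile normalization. Of 14 tested cytokine and innate receptors limma called none, with 2 at an unadjusted p under 0.05, and of 8 interferon-stimulated genes none, with 1 at an unadjusted p under 0.05. B2M was the 1 of 4 tested antigen presentation genes that rose.

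GZMB, granzyme B, the protease with which cytotoxic lymphocytes kill target cells, went from 1.80, 2.02, 2.20, 0.78 and 2.22 at day 3 to 2.96, 3.82, 3.09, 2.19 and 4.87 at day 12. The ranges overlapped, since mare 4 was lowest at both days, and each mare rose by 0.89 to 2.64. The pooled rise was 1.58 ± 0.24 (adjusted p = 0.000127), and the second probe was called. TPSB2, a tryptase of mast cells, went from −0.51, −2.20, −2.50, −3.82 and −0.77 to −0.24, −0.98, −2.11, −2.00 and 1.59. It varied more between mares than between days, so that the groups overlapped broadly. The within-mare rise was 1.21 ± 0.34 (adjusted p = 0.0133), and without the mare in the model the adjusted p was 0.339. Its call was also lost without mare 4 (1.06, adjusted p = 0.0749) or mare 5 (0.93, adjusted p = 0.076).

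FCER1A, the alpha chain of the mast cell IgE receptor, rose by 1.14 ± 0.25 (adjusted p = 0.00254), with its second probe called. Its call was not followed through the alternative fits. Mast cell markers thus rose in 2 of 2 tested genes of 6 listed, while 14.6% of all named genes rose. The mean level of the 2 per array was from −3.31 to −1.20 at day 3 and from −2.07 to 0.74 at day 12. The 4 tested of 19 markers of T and NK cells, of which GZMB rose and CCL5, CD2 and GNLY did not pass, had mean levels from −1.09 to −0.74 at day 3 and from −0.71 to 0.02 at day 12. The part of such cells in the rise of GZMB, TPSB2 and FCER1A was not tested. SERPINB1, an inhibitor of neutrophil proteases, fell in 4 of 5 mares, with a difference of −0.77 ± 0.22 (adjusted p = 0.0159). Without mare 4, whose day 12 level was the lowest, the difference was −0.45 (adjusted p = 0.0903). Without that array alone it was −0.50 (adjusted p = 0.0519). The call was lost in 5 of the 15 leave-out fits, with the slide in the model (0.0596) and with the 10 arrays alone (0.0947). Of the 7 tested serine proteases and inhibitors GZMB and TPSB2 rose and SERPINB1 fell, where 26.8% of all named genes were called. GZMB was also the 1 called gene of the 3 tested for apoptosis.

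The activin family, whose members regulate growth and differentiation, had 3 called genes among 6 tested of 29, all of which rose, with a median of 0.63. Of all named genes 14.6% rose. INHBA, the subunit of activin A, was at 0.18, 1.77, 1.98, 0.51 and 1.24 at day 3 and 2.39, 1.87, 3.61, 3.94 and 1.49 at day 12. The rise was 0.10 in mare 2 and 3.43 in mare 4, and the pooled difference 1.52 ± 0.50 (adjusted p = 0.0319), with all 3 other probes called. INHA, the inhibin alpha subunit, rose by 1.07 ± 0.27 (adjusted p = 0.0065). FST, the follistatin that binds activin, rose by 0.61 ± 0.19 (adjusted p = 0.024). INHBA lost its call in 8 leave-out fits, at most to 0.18 without mare 4, and with the 10 arrays alone (0.0564). FST lost it in 8, at most to 0.145 without mare 5, and with slide (0.149) or scan day (0.0798) in the model. INHA lost it without mare 2 (0.80, adjusted p = 0.052) and in 4 other fits, up to an adjusted p of 0.11 without the mare in the model and with a difference of 0.59 with normexp (adjusted p = 0.0882). DCN, MSTN and TGFB1 did not pass. None of 5 tested WNT pathway genes was called by limma or had an unadjusted p under 0.05.

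Of the 5 tested of 40 listed growth factors and receptors 2 rose and 1 fell, with a median of 0.47, where 26.8% of all named genes were called. BDNF, a neurotrophin, rose from −7.13 ± 0.78 (SD, n = 5) to −5.50 ± 0.51 with no overlap, by 1.62 ± 0.41 (adjusted p = 0.0069). It was well above background on 2 of 5 arrays at day 3, and 3 of its 4 other probes were called. The call was lost without mare 1 (1.40, adjusted p = 0.0565), with quantile normalization (1.19, adjusted p = 0.0813) and with normexp (0.42, adjusted p = 0.153). EPO, erythropoietin, went from −8.11, −6.86, −7.40, −6.28 and −7.48 to −6.01, −5.43, −4.77, −6.00 and −5.52, well above background on 1 of 5 arrays at day 3 and on all 5 at day 12. The difference was 1.68 ± 0.43 (adjusted p = 0.00803), all 4 other probes were called, and the call was lost without mare 3 (1.44, adjusted p = 0.0624), with quantile normalization (1.21, adjusted p = 0.0999) and with normexp (0.50, adjusted p = 0.157).

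MET, through which hepatocyte growth factor acts, rose by 0.90 ± 0.28 (adjusted p = 0.0238), while neither of its 2 other probes was called, and the call was lost in 9 leave-out fits, at most to 0.127 without mare 3. SPRED1, an inhibitor of growth factor signalling, fell by 1.13 ± 0.23 (adjusted p = 0.0014) with no overlap between the days. IGF1 was at −3.48 ± 0.87 at day 3 and −3.00 ± 0.52 at day 12, a difference of 0.47 ± 0.40 (adjusted p = 0.402) with 3 of 5 mares higher. Of 8 tested vessel genes 2 rose and the others did not pass, where 26.8% of all named genes were called and 14.6% rose. VEGFA, the main growth factor of endothelium, rose by 0.92 ± 0.32 (adjusted p = 0.0462), with 2 of 9 other probes called. PECAM1, an adhesion molecule and marker of endothelium, rose by 0.54 ± 0.19 (adjusted p = 0.0413), with neither of its other probes called. Each of these 2 calls was lost in 12 of the 15 leave-out fits, at most to 0.21 and 0.179, both without mare 3. VEGFA was also lost in 6 other fits, up to 0.154 with the slide and with a difference of 0.51 with normexp (adjusted p = 0.0754), and PECAM1 in 3, up to 0.0565 with the 10 arrays alone.

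Of the 4 tested ion and solute transporters of 35 listed, 3 fell and 1 rose, while 12.3% of all named genes fell and 14.6% rose. CFTR, a chloride channel, was at 1.97, 1.88, 2.22, 2.74 and 2.01 at day 3 and at −0.18, 0.28, −0.23, 0.20 and 1.25 at day 12. The groups did not overlap, mare 5 fell the least, and the difference was −1.90 ± 0.34 (adjusted p = 0.000529) with the second probe called. S100G, a calcium-binding protein of calcium-transporting epithelium, went from −2.75, −0.33, −0.10, 0.00 and 0.56 to −3.56, −2.68, −3.39, −2.51 and −1.19. The overlap of its groups came from mare 1, whose day 3 level was far below the others, and all 4 other probes were called with a difference of −2.14 ± 0.46 (adjusted p = 0.00228). SCN4A, a sodium channel, rose by 0.69 ± 0.23 (adjusted p = 0.0379), but lost its call in 12 leave-out fits, at most to 0.178 without mare 5, and in 6 other fits, where it reached 0.23 with normexp (adjusted p = 0.506), 0.27 with quantile normalization (0.351) and 0.43 with the scan day (0.136).

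In sugar and lactate handling, 3 of 15 tested genes were called, a share near the 26.8% of all named genes, and all 3 fell. SLC16A1, which carries lactate and pyruvate across the membrane, went from 3.35, 3.71, 4.09, 3.93 and 3.81 to 2.22, 2.99, 2.22, 2.52 and 2.92. No day 12 level reached a day 3 level, and the difference was −1.21 ± 0.26 (adjusted p = 0.00196) with the second probe called. BSG, basigin, the partner that brings this carrier to the membrane, fell by 0.61 ± 0.15 (adjusted p = 0.0063), and with the slide in the model the adjusted p was 0.0541. LDHA, the lactate dehydrogenase subunit that favours lactate formation, fell, with a difference of −1.00 ± 0.24 (adjusted p = 0.00556), with the call lost without mare 5 (−0.88, adjusted p = 0.0509). Among the other 12, HK2, PFKM, PKM, LDHB and SLC16A3, another lactate carrier, did not pass. The list's median was 0.06, and 7 of the 15 had an unadjusted limma p under 0.05.

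Genes of lipid storage and use rose in 4 of 4 tested cases of 34 listed, with a median of 1.32, while 14.6% of all named genes rose. PLIN2, which coats lipid droplets, went from 3.73, 3.08, 3.18, 3.21 and 3.61 to 4.40, 4.67, 4.26, 5.10 and 4.43, a rise of 1.21 ± 0.20 (adjusted p = 0.000251) with no overlap. PPARGC1A, a coactivator of mitochondrial genes, rose by 1.44 ± 0.39 (adjusted p = 0.0125). CPT1A, which admits fatty acids to mitochondria, rose by 0.98 ± 0.27 (adjusted p = 0.0125). Both of the last calls were lost without mare 3 (1.38, adjusted p = 0.0678, and 0.89, adjusted p = 0.0743). GM2A, described above, is the fourth. For iron, FTL, the ferritin light chain that stores it, rose from 3.40, 3.17, 2.94, 3.52 and 3.37 to 4.20, 4.06, 4.04, 3.80 and 4.29, by 0.80 ± 0.18 (adjusted p = 0.00288), without overlap. TFRC, the receptor that takes up transferrin, fell in 4 of 5 mares, with a difference of −1.45 ± 0.52 (adjusted p = 0.049). Its call was lost in 13 of the 15 leave-out fits, at most to 0.165 without the day 12 array of mare 4, whose level was the lowest, and in 4 other fits, among them normexp (−0.63, adjusted p = 0.0737).

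Structural genes were mixed. GSN, gelsolin, which cuts actin filaments, went from 3.40, 3.25, 3.39, 2.86 and 2.67 at day 3 to 4.95, 4.76, 4.58, 4.81 and 4.39 at day 12. The highest day 3 level was 3.40 and the lowest day 12 level 4.39, and the rise was 1.58 ± 0.23 (adjusted p = 6.28e-05) with the second probe called. RND3, a small GTPase that loosens actin fibres, fell by 1.21 ± 0.28 (adjusted p = 0.00342). MYH7, a myosin heavy chain of slow muscle, fell by 1.38 ± 0.39 (adjusted p = 0.0157) with both other probes called; the call was lost in 4 leave-out fits, at most to 0.0758 without mare 3, and with the slide in the model (0.0533).

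CADM1, an adhesion molecule of epithelium, fell by 1.16 ± 0.24 (adjusted p = 0.00159) and CD44, the hyaluronan receptor, fell by 0.87 ± 0.23 (adjusted p = 0.00954), both without overlap between the days. With the slide in the model CD44 had an adjusted p of 0.0815. ITGA2B, a platelet integrin chain, fell in 4 of 5 mares, with a difference of −0.77 ± 0.23 (adjusted p = 0.0196), with the call lost in 7 leave-out fits, at most to 0.0993 without mare 5, with the slide in the model (0.105) and with the 10 arrays alone (0.0571).

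SELP, the selectin of platelets and activated endothelium, rose by 1.25 ± 0.30 (adjusted p = 0.00554) without overlap, and had an adjusted p of 0.0565 with the slide in the model. Of 8 tested adhesion genes it alone rose, 3 fell and 4 did not pass. In the extracellular matrix 1 of 11 tested genes rose and 1 fell, while 14.6% of all named genes rose and 12.3% fell. COMP, a matrix protein best known from cartilage, went from −2.21, −4.41, −5.01, −4.93 and −3.84 to −1.37, −2.80, −2.03, −2.08 and −2.17. Mare 1, high at day 3, made the groups overlap, and the difference was 1.99 ± 0.35 (adjusted p = 0.000456) with the second probe called. COL11A1, a fibrillar collagen chain, fell in 4 of 5 mares, with a difference of −2.06 ± 0.60 (adjusted p = 0.0177). Its other probe was not called, 7 leave-out fits lost the call, at most to 0.119 without mare 4, without the mare in the model the adjusted p was 0.0509, and with normexp the difference was −0.72 (adjusted p = 0.126). TIMP3, an inhibitor of matrix proteases, rose by 0.75 ± 0.26 (adjusted p = 0.0428), but each of the 15 leave-out fits lost the call, with adjusted p from 0.0507 to 0.104, as did 4 other fits, up to 0.11 with the slide in the model.

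**Figure D4:**
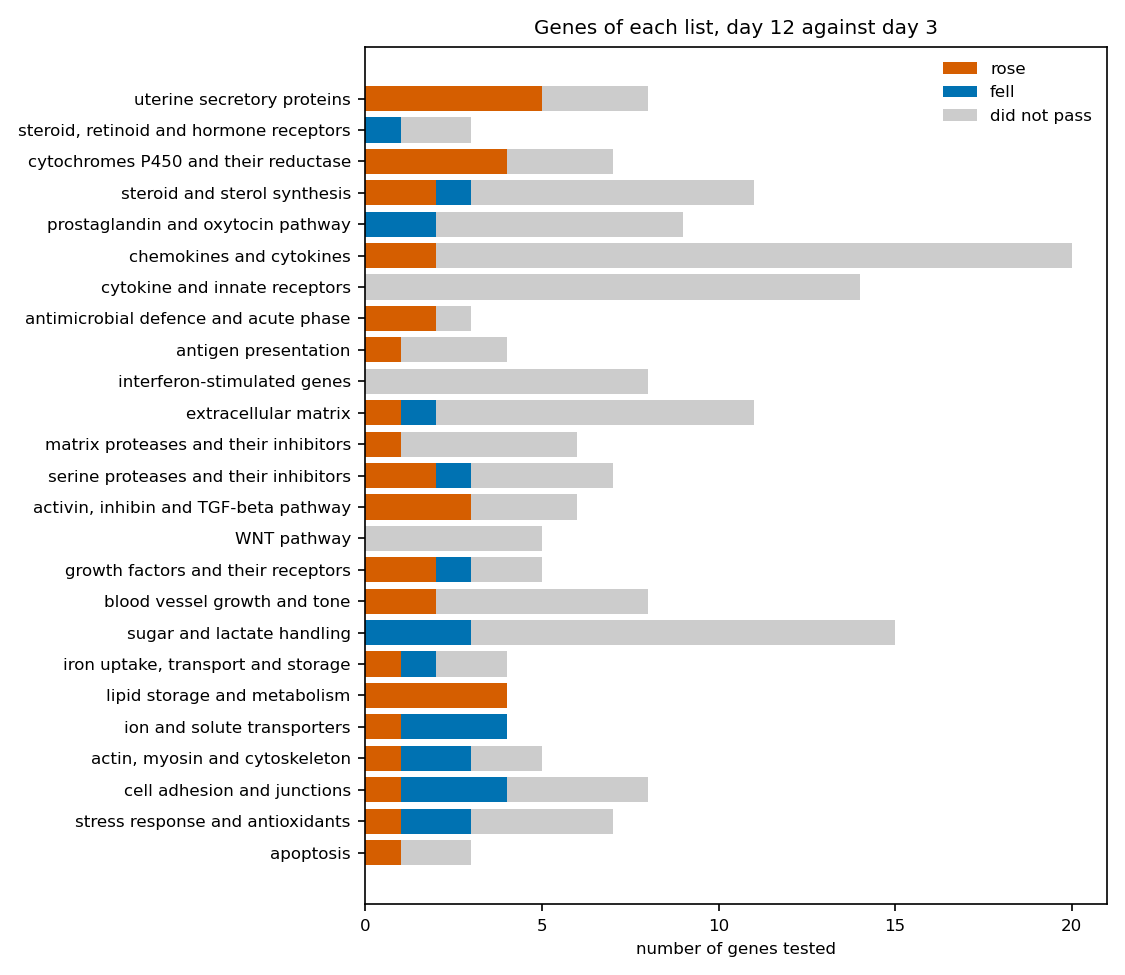
Number of tested genes of each of the 25 gene lists with a tested gene, split into genes that rose, fell or did not pass at day 12 against day 3. A gene can stand in more than 1 list. The longest bars, chemokines and cytokines with 20 genes and sugar and lactate handling with 15, are mostly grey, and the 4 lipid genes all rose.

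Several of the largest falls belonged to none of the lists. TRA2B, a splicing regulator, was at 2.97, 3.12, 3.13, 3.25 and 3.41 at day 3 and at 1.97, 1.80, 1.83, 1.92 and 2.01 at day 12. The mares differed little, with an SD of 0.16 and 0.09, and the difference of −1.27 ± 0.14 had an adjusted p of 5.08e-06, with the second probe called. H1-5, a linker histone, went from −2.53, −4.35, −5.17, −4.41 and −3.04 to −6.39, −6.00, −7.25, −6.84 and −7.26. No levels overlapped, and the difference was −2.85 ± 0.53 (adjusted p = 0.000645), or −1.31 with normexp (adjusted p = 0.00354). Day 12 was well above background on 4 of 5 arrays. UBE2S, a ubiquitin-conjugating enzyme that works with the anaphase-promoting complex in mitosis, went from 4.04, 2.91, 2.51, 3.04 and 3.53 to 1.63, 2.11, 1.82, 1.33 and 1.54. The difference was −1.52 ± 0.26 (adjusted p = 0.000288), and mares 1 and 5 were highest at day 3.

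RNASEH2C, a subunit of the enzyme that cuts RNA out of DNA hybrids, went from −0.17, −2.18, −2.08, −2.52 and −0.74 to −3.53, −3.17, −3.29, −3.42 and −3.38. Mares 1 and 5 stood above the others at day 3, while all were alike at day 12 (SD 0.13). The difference was −1.82 ± 0.29 (adjusted p = 0.000172). GPCPD1, which splits glycerophosphocholine, fell by 1.53 ± 0.24 (adjusted p = 0.00016) and ASZ1, a germ cell protein, fell by 1.24 ± 0.24 (adjusted p = 0.00105), both without overlap. H19, a long non-coding RNA of an imprinted locus, differed by −1.42 ± 0.50 (adjusted p = 0.0458). Its other probe had the opposite sign, and the call was lost in 12 leave-out fits, at most to 0.202 without mare 5, and in 3 other fits. No gene of the cell cycle list could be tested under a symbol.

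Among stress response genes HSP90AB1, a constitutive heat shock protein and chaperone of steroid receptors, went from 6.48, 6.96, 6.67, 6.84 and 6.70 to 5.84, 6.05, 5.92, 5.69 and 6.01. The difference of −0.83 ± 0.17 (adjusted p = 0.00155) left no overlap, and all 5 other probes were called. TXN, thioredoxin, which reduces disulphides in the cell, went from 2.91, 2.85, 2.92, 3.19 and 3.00 to 2.09, 2.12, 2.09, 2.11 and 2.24, a difference of −0.84 ± 0.16 (adjusted p = 0.000655). Of 7 tested genes these 2 fell, GPX3 rose, and HSPA8, SOD1, SOD2 and TXNRD1 did not pass, where 26.8% of all named genes were called. CTTNBP2, a cortactin-binding protein, had the smallest adjusted p of the named genes. It went from 0.61, 0.52, 0.46, 0.37 and 1.33 to 3.05, 3.16, 3.36, 2.85 and 3.10, a rise of 2.45 ± 0.21 (adjusted p = 7.32e-07), and its highest day 3 level of 1.33 lay well below its lowest day 12 level of 2.85.

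Day 8 divides the interval, and both differences from it use the same day 8 arrays, so they are set side by side without a test of one against the other. Against day 3, 6035 probes (16.9%) were called at day 8, and between day 8 and day 12 853 probes (2.38%). For named genes these were 89 (17.3%) and 23 (4.47%), the latter with 16 higher (3.11%) and 7 lower (1.36%). The second count is small and fell whichever mare was left out. Without mare 2 it was 3 probes, without mare 3 limma called 0, and without mares 1, 4 and 5 it was 279, 244 and 223. Between 4721 probes (without mare 3) and 6112 (without mare 4) still had an unadjusted limma p under 0.05 in these fits. Whether the difference came from single mares was not tested. The count from day 8 to day 12 was 4 with the slide and 392 without the mare in the model. The first count was 4008 without mare 2 and 3464 with the slide. The timing of a single gene is therefore given as values, with the adjusted p of each part.

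The CYP3A genes, P19 and SAA had the whole of their difference by day 8. CYP3A97 differed by 5.52 ± 0.58 up to day 8 (adjusted p = 7.92e-06) and by −0.35 ± 0.58 after it (adjusted p = 0.754), and CYP3A89 by 4.73 ± 0.46 (3.58e-06) and −0.39 ± 0.46 (0.653). P19 differed by 2.20 ± 0.48 (adjusted p = 0.00353) and then by −0.25 ± 0.48 (0.79), SAA by 5.08 ± 1.24 (0.00764) and −0.76 ± 1.24 (0.752). CTTNBP2 and PLIN2 rose by 2.29 ± 0.21 and 1.70 ± 0.20 to day 8 (adjusted p = 2.29e-06 and 2.18e-05). INHBA had its highest mean at day 8, 2.79 ± 0.50 above day 3 (adjusted p = 0.000631), and then differed by −1.27 ± 0.50 (0.167). CYP19A1, not called between days 3 and 12, was 1.86 ± 0.48 higher at day 8 than at day 3 (adjusted p = 0.0112). Among the falls, CFTR and RNASEH2C had changed by −1.69 ± 0.34 and −1.65 ± 0.29 at day 8 (adjusted p = 0.00189 and 0.000579), with −0.21 ± 0.34 and −0.17 ± 0.29 after it.

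Other genes had most of the difference after day 8. CHGA differed by 0.94 ± 0.86 up to day 8 (adjusted p = 0.496) and by 5.27 ± 0.86 from there to day 12 (0.00889), RBP4 by 0.47 ± 0.48 (0.547) and 2.92 ± 0.48 (0.00951). DEFB4B differed by 0.94 ± 1.18 (0.633) and 4.88 ± 1.18 (0.037). The first part was −0.01 ± 0.23 for GSN, −0.07 ± 0.36 for AKR1C1, −0.18 ± 0.41 for BDNF and −0.10 ± 0.18 for FTL, and the second 1.59 ± 0.23, 1.79 ± 0.36, 1.80 ± 0.41 and 0.90 ± 0.18 (adjusted p = 0.00566, 0.0194, 0.03 and 0.0178). PLA2G2A was spread evenly, with −1.68 ± 0.42 (adjusted p = 0.00953) and −1.67 ± 0.42 (0.0442), and so was ESR1 with −0.62 ± 0.26 (0.119) and −0.66 ± 0.26 (0.178), neither of which passed alone. HSD11B2 and S100G differed by −0.50 ± 0.42 and −0.60 ± 0.46 before day 8 and by −1.48 ± 0.42 and −1.54 ± 0.46 after it (adjusted p = 0.0642 and 0.0796). CYP2E1 had 3.40 ± 0.82 (adjusted p = 0.00722) and 1.97 ± 0.82 (0.196).

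**Figure D5:**
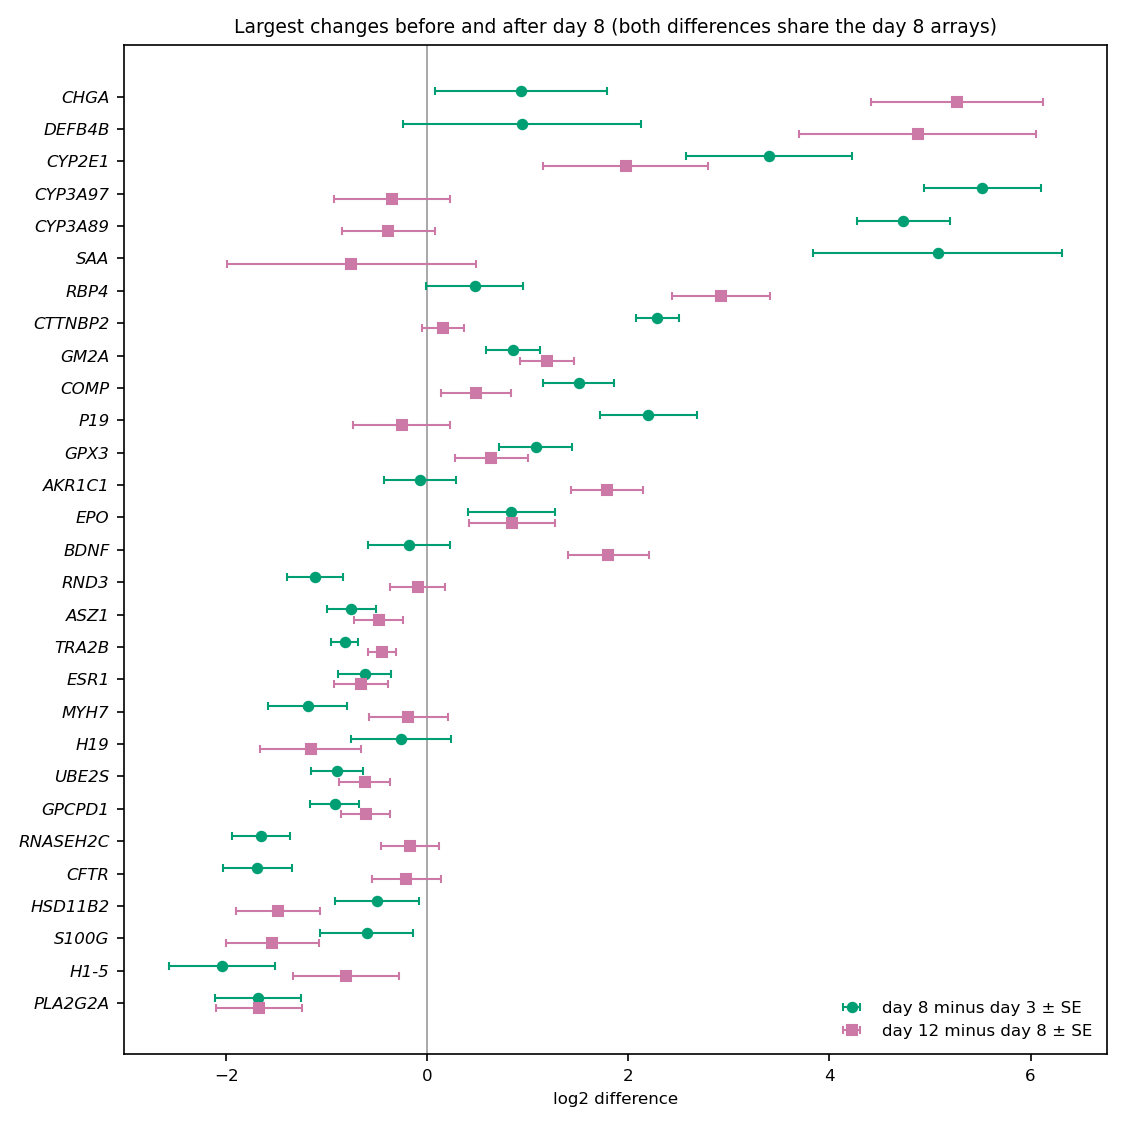
Log2 difference with SE of 29 of the 30 genes with the largest rises and falls, from day 3 to day 8 (green circles) and from day 8 to day 12 (purple squares); both use the same day 8 arrays. CYP3A97, CYP3A89 and SAA have the green circle far to the right and the purple square near 0, and CHGA, DEFB4B and RBP4 the reverse.

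Marker genes of the cells that an endometrial biopsy holds were compared as a check on its makeup. ESRP1, a splicing factor of epithelium, was well above background on every array of both days, with levels from 2.76 to 3.40 at day 3 and from 3.07 to 3.46 at day 12. The stromal genes DCN and LUM had mean levels from 1.52 to 3.19 at day 3 and from 1.68 to 2.35 at day 12. Neither list had a called gene, with 0 of 1 and 1 of 2 at an unadjusted p under 0.05. TAGLN for muscle, DYDC1 for ciliated cells, CD14 and CD68 for macrophages, MMP9 for neutrophils and HBA2 for red cells were not called either, although DYDC1 and 1 of the 2 macrophage genes had an unadjusted p under 0.05. Among endothelial markers PECAM1 was the only tested one and rose by 0.54. CHGA was the only tested one of 6 markers of endocrine-like granule cells, and no marker of B cells could be tested. The part of cell makeup in the differences above was not tested.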

How the data were processed

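Messenger RNA of 25 endometrial biopsies, 5 mares at days 0, 3, 8, 12 and 16, was hybridized to one-colour Agilent arrays after Trizol extraction and Cy3 labelling, per the labels' protocols. What the authors deposited are intensities of each spot, from which Agilent Feature Extraction 10.7.3.1 had taken the background and a spatial trend, per the file headers. In all 25 arrays the series' value table equals this processed signal, and no normalization between arrays is given in the sources used here.

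From these, log2 values minus the 75th percentile of each array were computed, outlier spots were set to missing and the spots of a probe averaged. A probe was tested if well above background on at least 4 of 5 arrays of some day (35772 of 43603). This scaling cannot see a change in total RNA. All 25 arrays were fitted with limma 3.58.1 in R 4.3.3, with day and mare as terms, moderated two-sided tests and Benjamini-Hochberg adjustment over all tested probes. The scripts were tested on simulated data. Tables and figures were made with Python 3.11.15, pandas 2.3.3, numpy 2.4.6 and matplotlib 3.10.9.

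Arrays with the same replicate number come from the same mare, per the labels. The deviations from the day means correlated between 0.055 and 0.58 for arrays of the same mare at days 3 and 12 (median 0.29). For different mares they correlated between −0.46 and 0.28 (median −0.016), so the ranges overlapped. All pairs on 1 slide were of the same mare, so slide and mare cannot be told apart in them. The 25 arrays lay on 7 slides and were scanned on 4 days; mares 1, 2 and 4 had both arrays on 1 slide.

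Symbols came from RefSeq genes of the assembly TB-T2T by accession, for 1307 probes of 620 genes; 584 of these genes had a symbol, and those of the form LOC plus digits count as identifiers. The 32565 Ensembl, 6468 GenBank or EST and 1539 other RefSeq accessions and the 1724 probe identifiers were not matched. A gene is represented by its brightest probe. Close paralogues can cross-hybridize. Named genes are the 15 largest rises and 15 largest falls called and alike in direction in every mare, up to 4 called members of each of 26 lists, and ESR1, P19, PTGFR, PTGS2, IGF1, HSD3B2 and CYP19A1. FCER1A was named from the marker lists, and results of some genes are not reported here. The comparison, lists and rules were chosen with earlier results of these data known. Alternatives were other scaling, background correction, filters, model terms and samples, and leaving out each mare or array; slide with mare for the day 8 comparisons was added after seeing the data.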

Additional observations from a re-analysis of the deposited data

Results flagged for a closer look

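Within each day, the 144 groups of 5 arrays formed by the 70 selected genes and 2 measures of each array, its 75th percentile and its share of probes well above background, were searched for a single array far from the others, by Dixon's criterion at the 95% level. It marked 13 of them, where chance marks about 1 in 20. The 75th percentile of the array of mare 1 at day 3 was 2492, against 1601 to 1834 on the other 4 arrays of that day.

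At day 3, the log2 level of S100G was −2.75 in mare 1 and between −0.33 and 0.56 in the other mares. GPX3 was −2.15 in mare 4, against −0.95 to −0.63. PECAM1 was 0.93 in mare 4, against 0.06 to 0.31. CTTNBP2 was 1.33 in mare 5, against 0.37 to 0.61.

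At day 12, DEFB4B was −4.01 in mare 5, against 0.28 to 1.73 in the other mares. PTGS2 was 0.36 in mare 5, against 1.12 to 1.39, and TXN was 2.24 in mare 5, against 2.09 to 2.12. PLA2G4A was −0.40 in mare 1, against −1.77 to −1.58, and FST was 2.03 in mare 1, against 2.94 to 2.98. In mare 4, TFRC was −7.48, against −6.09 to −5.60, PTGFR −5.82, against −4.35 to −4.02, and SERPINB1 0.84, against 1.78 to 2.14.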

How the results depend on the processing

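The count of 8332 called probes stayed within 1.5 times under the 10 alternatives that kept all mares and arrays of both days, between 5891 with slide and mare and 8920 with the array signal level in the model. Without the mare as a block it was 6415 probes, 3112 higher and 3303 lower, and 102 named genes. It was 5396 higher and 3481 lower with the 10 arrays alone. With a minimum of 2-fold it was 3899. Leaving out 1 mare gave 5189 to 7045 probes and 82 to 115 named genes, against 138, and leaving out 1 array 6411 to 8093 probes and 103 to 136 genes. All 138 called genes kept their direction with the median over their probes. Only the 68 with more than 1 tested probe could have changed, and their called probe is part of the median. Day 8 against day 3 gave 3464 probes with slide and mare in the model, and 4008 to 4434 with 1 mare left out. Day 12 against day 8 gave 392 probes without the mare as a block, 4 with slide and mare, and 0 to 279 with 1 mare left out.

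Of the 65 called genes among the 70 selected, 18 lost their call with slide and mare in the model, 10 with normexp, 9 without the mare, 9 with the scan day, 8 with quantile normalization, 6 with no filter, 6 with the 10 arrays alone, 2 with an intensity trend and 0 with the stricter filter or the signal level. Leaving out a mare lost 12 to 16 of them and leaving out an array 6 to 13. Normexp moved the difference of 13 genes by over 1.5 times, all of them towards 0, quantile normalization that of 2. No called gene reversed. Signal over background limits CHGA, CYP3A97, EPO and BDNF, which were well above background on 1 or 2 of 5 arrays at day 3.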

Other observations

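The naming rule left out called genes that were singled out here after their values had been seen. Their calls were not followed through the alternative fits. The monoamine oxidases, which break down monoamines, went opposite ways. MAOA, monoamine oxidase A, fell by 1.11 ± 0.21 (log2, ± SE, adjusted p = 0.000848), whereas MAOB was higher by 1.27 ± 0.43 (adjusted p = 0.0377); each had this direction in all 5 mares. PGFS, named for the synthesis of prostaglandin F, was at 0.46, 1.47, 1.77, 1.56 and −0.09 in mares 1 to 5 at day 3 and at 1.93, 2.51, 1.70, 2.63 and 1.51 at day 12, higher by 1.02 ± 0.32 (adjusted p = 0.0285) in 4 of 5 mares. MMP26, a matrix protease, was at 4.96, 4.42, 4.93, 4.51 and 5.48 at day 3 and at 5.75, 6.46, 5.75, 5.82 and 6.68 at day 12, higher by 1.23 ± 0.33 (adjusted p = 0.0109), with 1.67 ± 0.33 before day 8 and −0.44 ± 0.33 after it. UBE2B, a ubiquitin-conjugating enzyme, was at −3.25, −3.08, −3.16, −3.07 and −2.91 at day 3 and at −2.05, −1.85, −1.83, −2.13 and −2.04 at day 12, higher by 1.11 ± 0.17 (adjusted p = 0.000101), the opposite direction to UBE2S. ACLY, which makes acetyl-CoA for fatty acid and sterol synthesis, fell by 1.17 ± 0.20 (adjusted p = 0.00033), while the 4 tested genes of the lipid list rose.

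Differences larger than those of any named gene belonged to transcripts that have no symbol here. They were picked as the largest among called Ensembl transcripts with the same direction in all 5 mares. Other probes without a symbol were not ranked. For the transcript ENSECAT00000025397 all 15 tested probes were called higher. One of them was at −8.91, −8.71, −9.45, −9.69 and −9.32 in mares 1 to 5 at day 3, well above background on none of the arrays, and at 2.68, 0.14, 2.01, 1.50 and −2.04 at day 12. This is an at least 297-fold higher level, computed against the higher, on each array, of the probe's own signal and the lowest signal well above background of any probe, with a measured difference of 10.07 ± 1.05 (adjusted p = 4.01e-06). The transcript ENSECAT00000019461 went the other way, from −1.20, −4.85, −4.86, −3.33 and −2.41 at day 3 to −9.97, −9.26, −9.64, −10.27 and −9.50 at day 12, where it was well above background on none of the arrays. It was at least 18.9-fold lower, with a measured difference of −6.40 ± 0.71 (adjusted p = 6.63e-06) and both of its probes called. ENSECAT00000016855 differed by −6.09 ± 0.70 (adjusted p = 9.02e-06), also with both probes called.

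The mares did not rank alike over the largest rises. The rise of mare 1 was the smallest of 5 for CYP2E1, CYP3A97, CYP3A89, SAA and P19, at 2.88, 2.50, 2.17, 1.51 and 0.47, and the largest for DEFB4B and RBP4, at 8.94 and 4.52. The rise of mare 5 was the smallest for CHGA, DEFB4B, RBP4 and CTTNBP2, at 3.14, 2.76, 2.35 and 1.77. These are values of single biopsies, and whether mares differ in their response was not tested.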
